A study of Mus musculus with 9 samples.

Results

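The genes described here are 10 genes of maturing astrocytes that serve gap-junction coupling, potassium and water handling, glutamate clearance and related functions: Gja1, Kcnj10, Aqp4, Mlc1, Slc1a2, Slc1a3, Glul, S100b, Aldoc and Sparcl1. Every probe set annotated with 1 of these symbols alone was taken, which gave 21 of the 22626 non-control probe sets of the array. The tissue was barrel cortex, the whisker area of mouse somatosensory cortex, from which layer IV had been cut out by laser microdissection at postnatal day 5 in C57BL/6 mice. Gap43, which encodes a protein abundant in axon growth cones, defined the 3 genotypes, labelled as wild type (WT), as heterozygous (HZ) and as knockout (KO). Each genotype had 3 mice with 1 array per mouse, so n = 3 throughout, and this small number of arrays bounds the precision. The labels do not say which part of Gap43 is missing in the mutant, so where its probe set lies relative to that part is unknown here. The microdissected tissue holds neurons and glia together, and no cells were sorted. The genes were selected on their signals in these same genotype contrasts, whose results were already known, so their genotype differences are given as a description and support no test. The comparisons of HZ and of KO with WT share the same 3 WT arrays, and both comparisons of KO share the KO arrays.

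Astrocytes are joined into a network by gap junctions, whose main astrocytic subunit is connexin 43, the product of Gja1. Their membranes take up the potassium and the glutamate that active neurons release, through the Kir4.1 channel (Kcnj10) and the transporters GLAST (Slc1a3) and GLT-1 (Slc1a2), and glutamine synthetase (Glul) turns the glutamate into glutamine that goes back to neurons. The first postnatal weeks are the time when astrocytes of rodent cortex multiply and acquire these properties, with GLAST prominent early and GLT-1 increasing later.

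Values are MAS5 signals, linear intensities that the authors had scaled to 1 common mean per array. Gap43 itself was at 4294 to 7089 in WT, 4389 to 5039 in HZ and 979 to 1930 in KO, and in a limma fit across the 13576 brightest probe sets it was the 1 probe set called at an adjusted p below 0.05 in KO against WT and in KO against HZ. The HZ arrays lay within the WT range for Gap43 (log2 difference -0.13, limma adjusted p = 0.917), so its signal did not separate the arrays labelled HZ from WT. Rorb, which encodes a nuclear receptor of layer IV neurons, was measured on every array, at 530 ± 65.2 in WT, 609 ± 95.5 in HZ and 328 ± 27.4 in KO (SD, n = 3). Arrays of the same genotype correlated at a median r of 0.961 across probe sets. The 3'/5' signal ratio of the Actb control probe sets, which reflects the length of the labelled RNA, was 8.12 to 12.4 in WT, 7.80 to 25.1 in HZ and 7.80 to 12.1 in KO, the highest value being that of HZ 2. On some arrays the astrocyte genes stood apart from the rest of their genotype, and values without single arrays are given for some of the differences. WT 2 held the highest signal of 5 of the 9 astrocyte genes tested. On KO 2 the mean log2 difference of these 9 genes from the WT mean (-0.28) was near that of the HZ arrays (-0.22 to -0.19). Single genes on KO 2 ranged from -1.08 for S100b to 0.58 for Aqp4. WT 1 had a mean log2 difference of -0.22 from the WT mean over these 9 genes, level with the HZ arrays.

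The upstream sequences of 3 of the genes are shown because these genes represent the different genotype patterns described below: for Gja1 and S100b the KO arrays lay below both other genotypes, and for Glul the HZ arrays lay below WT. Each is the 250 bases before the annotated gene start, credited to RefSeq (GRCm38.p6). Capitals mark matches, on either strand, to the motifs searched.
Gja1 (chr10:56377050-56377299, + strand): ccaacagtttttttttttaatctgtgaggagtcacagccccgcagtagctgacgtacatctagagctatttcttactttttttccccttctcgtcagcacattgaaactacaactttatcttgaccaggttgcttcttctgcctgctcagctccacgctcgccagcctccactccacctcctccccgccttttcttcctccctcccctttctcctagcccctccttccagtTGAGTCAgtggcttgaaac
S100b (chr10:76253586-76253835, + strand): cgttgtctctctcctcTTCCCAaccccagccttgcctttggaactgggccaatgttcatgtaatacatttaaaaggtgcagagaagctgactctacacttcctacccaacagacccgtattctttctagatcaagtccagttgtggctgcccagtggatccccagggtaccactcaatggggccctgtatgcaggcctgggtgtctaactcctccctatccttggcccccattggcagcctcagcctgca
Glul (chr1:153899679-153899928, + strand): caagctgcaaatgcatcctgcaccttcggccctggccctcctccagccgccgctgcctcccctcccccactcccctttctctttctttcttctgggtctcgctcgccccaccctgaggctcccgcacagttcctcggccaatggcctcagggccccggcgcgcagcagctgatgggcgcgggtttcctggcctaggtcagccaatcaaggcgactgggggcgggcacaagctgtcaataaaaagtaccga
The motifs were those of AP-1 (TGANTCA), RBPJ (TGGGAA), STAT (TTCNNNGAA), SOX (AACAAT) and NFI (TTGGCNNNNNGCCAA), and no match overlapped another in the same sequence. The RefSeq table gave 9 such sequences for 8 of the genes, Aldoc having 2. The AP-1 letters stood 19 bases before the Gja1 start and in no other of the 9 sequences, against 6.75% of all 32851 sequences of the table. RBPJ letters stood in 4 of the 9 (S100b, Mlc1 and both of Aldoc), against 21.6% of all. STAT letters stood in 2 of the 9 (Slc1a3 and Aldoc), against 7.02%, and the SOX and NFI letters in 0, against 9.42% and 0.0365%. No motif was shared by all of the genes. These matches describe letters in a window and do not show binding.

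On their brightest probe sets all 10 genes had a mean log2 signal that was lower in KO than in WT, 9 of 10 were lower in HZ than in WT, and 8 of 10 were lower in KO than in HZ. Over all 12393 genes of the array the shares below 0 were 45.2%, 41.2% and 55.8%. The median log2 difference of the 10 genes was -0.57 between KO and WT, -0.24 between HZ and WT and -0.34 between KO and HZ, beside 0.03, 0.06 and -0.03 over all genes. The 3 KO arrays were all below the 3 WT arrays for 5 genes (Gja1, Kcnj10, Slc1a3, S100b and Sparcl1), beside 5.5% of all genes. For HZ against WT this held for 3 genes (Slc1a3, Glul and Sparcl1), beside 3.8%, and for KO against HZ for 5 (Gja1, Kcnj10, Mlc1, S100b and Aldoc), beside 7.84%. No gene had arrays lying apart in the other direction. Because these contrasts were known when the genes were chosen, nothing is read from these counts. Fewer astrocytes in the tissue and less RNA per astrocyte cannot be told apart in such bulk samples.

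**Figure D1:**
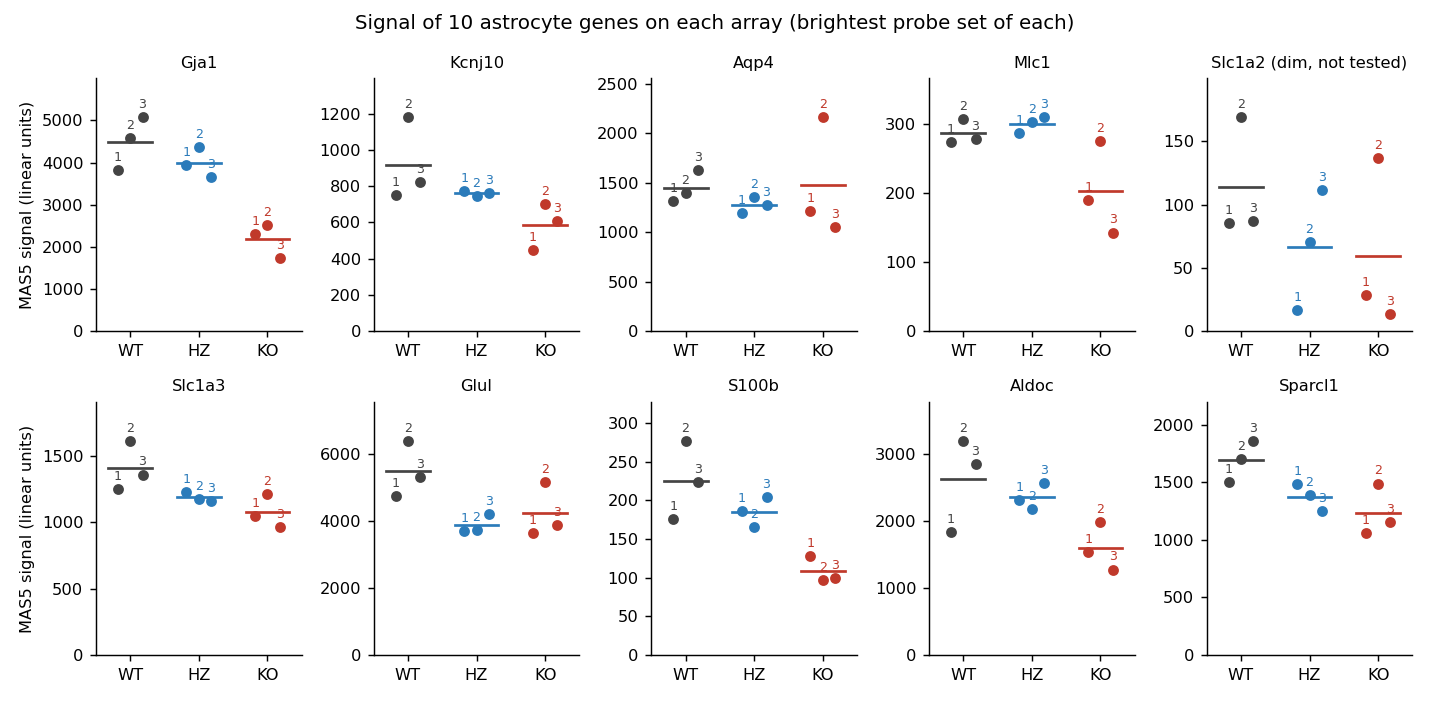
MAS5 signal (linear units, axis from 0) of the brightest probe set of each of the 10 genes on the 9 arrays, with genotype on the horizontal axis, a point and its replicate number for each array and a line for the mean of 3 arrays. The 3 KO arrays of Gja1 sit between 1731 and 2527, below all WT and HZ arrays, whereas for Aqp4 KO 2 has the highest signal of all arrays (2163).

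A total of 17 of the 21 probe sets, from 9 of the 10 genes, were bright enough to enter the limma fit. Of these 17, 0 were called in KO against WT (0.00737% of the 13576 probe sets were called), 0 in HZ against WT (0%) and 0 in KO against HZ (0.00737%). The smallest Benjamini-Hochberg adjusted p among them from limma was 0.118, 0.792 and 0.211. An unadjusted p below 0.05 together with a lower signal was given to 13 of 17 in KO against WT, where 3.59% of all tested probe sets met it. The numbers were 2 of 17 in HZ against WT (2.18% of all) and 9 of 17 in KO against HZ (3.76%). All 5 tested probe sets of Gja1 were among those counted in both comparisons of KO, so the 17 are not independent. Because the genes were chosen with these contrasts known, nothing is read from these counts. With array weights in the fit, the brightest Gja1 probe set was called in KO against WT (limma adjusted p = 0.0318). Its adjusted p ran from 0.0318 to 0.446 over the 20 alternatives that gave one. No other alternative called this probe set, and nothing is read from the call with array weights either.

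Gja1 encodes connexin 43, the subunit of the channels that couple astrocytes. Its brightest probe set was at 3819, 4592 and 5081 in the 3 WT arrays, 3948, 4380 and 3665 in the HZ arrays and 2298, 2527 and 1731 in the KO arrays. The KO arrays lay below all 6 others, and the WT and HZ arrays overlapped. The KO mean (2185 ± 410, SD, n = 3) was 48.6% of the WT mean (4497 ± 636), a log2 difference of -1.04 (95% interval -1.40 to -0.69) or 2.06-fold. HZ (3998 ± 360) was at 88.9% of WT, a log2 difference of -0.16 (-0.52 to 0.19), and KO differed from HZ by -0.88 (-1.24 to -0.53). The KO to WT difference was -1.16 without KO 2 and -0.89 without KO 3, the extremes when each array was left out in turn. The HZ to WT difference was -0.28 without WT 1, -0.07 without WT 3 and -0.10 without HZ 3.

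Gja1 was read by 6 probe sets, more than any other gene of the group, and 4 of them carry the suffix _x_at, which marks probes that may also match other transcripts. All 5 tested probe sets had every KO array below every WT array, with log2 differences from -1.24 to -0.64. The 1 probe set of the 5 without that suffix was at 778, 483 and 714 in WT, 339, 559 and 370.5 in HZ and 204, 409 and 219 in KO. It differed by -1.24 between KO and WT and by -0.62 between HZ and WT, a larger HZ difference than on the 4 _x_at probe sets, where it ran from -0.32 to -0.08. Its HZ and WT arrays overlapped, as did its KO and HZ arrays. The sixth probe set was dim on all arrays, at 14.2 to 48.1, and its groups overlapped. Over the 9 arrays the 5 tested probe sets correlated with each other at a median r of 0.82 over 10 pairs (0.45 to 0.96), as a description.

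**Figure D2:**
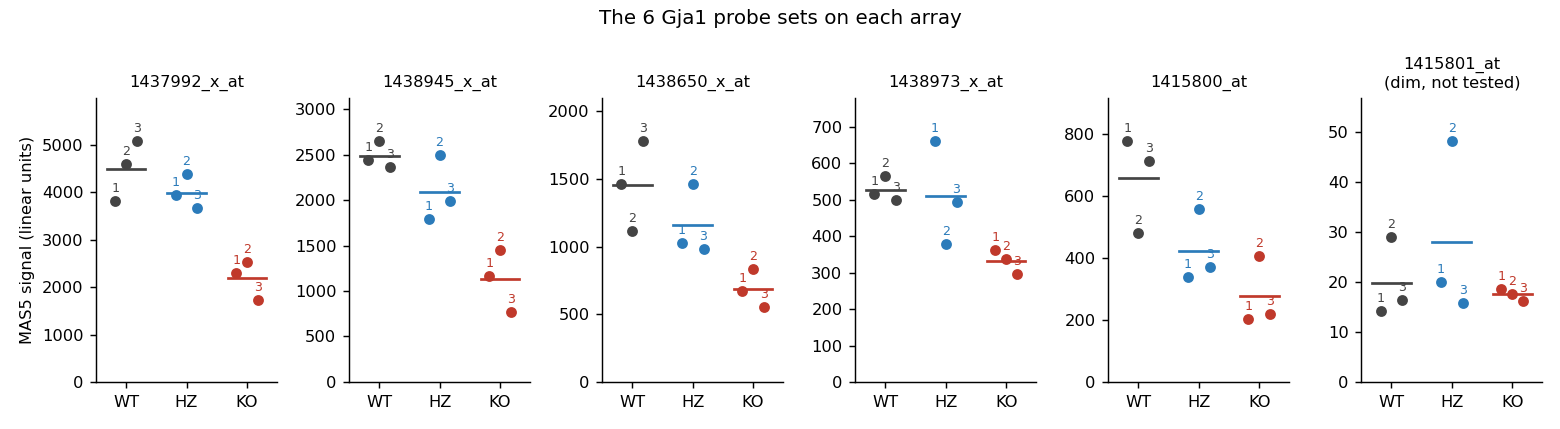
MAS5 signal (linear units, axis from 0) of each of the 6 Gja1 probe sets on the 9 arrays, with genotype on the horizontal axis, a numbered point per array and a line for the mean. The KO arrays lie below the WT arrays on the first 5 probe sets; the last one reaches at most 48.1 and shows no separation.

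Kcnj10 encodes Kir4.1, the inward-rectifying channel through which astrocytes buffer potassium. Its 1 probe set was at 750.3, 1182 and 823 in WT, 775, 748 and 763 in HZ and 447, 703 and 606 in KO. The 3 HZ arrays were nearly equal, the WT spread came from WT 2, and each KO array lay below all WT and HZ arrays. KO was at 63.8% of WT, a log2 difference of -0.63 (95% interval -1.07 to -0.19), and HZ at 83.0%, a difference of -0.24 (-0.68 to 0.20). Without WT 2 these differences were -0.44 and -0.04, and without WT 1 the HZ difference was -0.37.

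Mlc1 encodes a membrane protein of astrocyte endfeet that is mutated in a leukodystrophy with cysts. Its signal was 275, 308 and 279 in WT, 287, 304 and 311 in HZ and 191, 276 and 143 in KO. WT and HZ lay in 1 narrow range, KO 1 and KO 3 were below it, and KO 2 was inside the WT range. KO was at 70.7% of WT (log2 difference -0.51, 95% interval -0.96 to -0.06) and at 67.6% of HZ (-0.57), whereas HZ was at 104.6% of WT (0.06, -0.39 to 0.51). With the arrays set to 1 median the HZ difference turned to -0.03, and it was 0.03 to 0.11 with single arrays left out. The KO to WT difference was -0.74 without KO 2 and -0.30 without KO 3, and the KO to HZ difference was -0.37 without KO 3.

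Aqp4, the water channel of astrocyte endfeet, had overlapping arrays in all 3 comparisons. It was at 1311, 1394 and 1625 in WT, 1196, 1359 and 1277 in HZ and 1216, 2163 and 1052 in KO. KO 2 had the highest signal of the 9 arrays and KO 3 the lowest, so that the KO group (1477 ± 600, SD, n = 3) enclosed both others. The log2 difference was -0.03 for KO against WT (95% interval -0.52 to 0.45) and -0.17 for HZ against WT (-0.66 to 0.32). The first was -0.34 without KO 2 and 0.17 without KO 3, so its sign depended on single arrays. The second was -0.08 without WT 3. A second, dimmer probe set had differences of -0.12 and -0.08.

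Among the genes of glutamate clearance, Slc1a3, the early transporter GLAST, was at 1251, 1614 and 1359 in WT, 1225, 1178 and 1161 in HZ and 1049, 1216 and 961 in KO on its brightest probe set. All 6 HZ and KO arrays were below the lowest WT array, by a small margin for HZ 1 and KO 2. HZ was at 84.3% of WT (log2 difference -0.24, 95% interval -0.57 to 0.10) and KO at 76.3% (-0.38, -0.71 to -0.05). Without WT 2 the HZ difference was -0.13. The KO and HZ arrays overlapped. The second tested probe set of Slc1a3 had differences near 0 (-0.12 for HZ and -0.04 for KO), and the third was dim, at 17.4 to 93.0.

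Glul, the glutamine synthetase gene, had HZ arrays that all lay below WT. Its brightest probe set was at 4766, 6413 and 5312 in WT, 3715, 3751 and 4232 in HZ and 3648, 5186 and 3884 in KO. KO 3 was in the HZ range, KO 1 just below it and KO 2 in the WT range. HZ was at 70.9% of WT, a log2 difference of -0.49 (95% interval -0.83 to -0.15), and KO at 77.1% (-0.38, -0.72 to -0.04). KO and HZ differed by 0.11 (-0.23 to 0.45), and this turned to -0.05 without KO 2 and was 0.20 without KO 1. On the second Glul probe set the HZ difference was smaller (-0.25) and the arrays of HZ and WT overlapped.

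Slc1a2, the transporter GLT-1 that takes over glutamate uptake in the mature cortex, was read by 1 dim probe set that did not enter the fit. Its signal was 85.6, 169 and 86.9 in WT, 16.4, 70.7 and 111 in HZ and 28.8, 136 and 13.5 in KO. The groups overlapped and the spread within HZ and KO was close to or above their means (66.1 ± 47.5 and 59.5 ± 67.0, SD, n = 3). The log2 difference of -1.09 between KO and WT ran from -1.78 to -0.59 when single arrays were left out, so no level difference was measurable with this probe set.

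S100b encodes a calcium-binding protein of astrocytes that is also made by cells of the oligodendrocyte lineage. Its brighter probe set was at 176, 277 and 223 in WT, 186, 166 and 204 in HZ and 128, 96.9 and 99.0 in KO. The KO arrays lay below all others, KO 2 being the lowest, and WT and HZ overlapped. KO was at 47.9% of WT (log2 difference -0.95, 95% interval -1.41 to -0.49), and HZ at 82.1% (-0.25, -0.70 to 0.21). The HZ difference was -0.10 without WT 2 and -0.40 without WT 1. KO differed from HZ by -0.70 (-1.16 to -0.25). The second S100b probe set was dim (39.8 to 132) and its groups overlapped, with a KO to WT difference of -0.21 and an HZ to WT difference of 0.26.

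Aldoc, the brain isoform of the glycolytic enzyme aldolase, was at 1839, 3202 and 2860 in WT, 2318, 2181 and 2565 in HZ and 1542, 1992 and 1277 in KO. WT 1 lay within the KO range, so that WT and KO overlapped, while every KO array was below every HZ array. KO was at 60.9% of WT (log2 difference -0.70, 95% interval -1.15 to -0.24) and HZ at 89.4% (-0.13, -0.58 to 0.33). Without WT 2 the HZ difference was 0.03 and the KO difference -0.54, and without WT 1 the HZ difference was -0.36. A dimmer second probe set had a KO to WT difference of -1.29, with KO 3 at 19.4.

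Sparcl1, a secreted matrix protein that astrocytes release onto synapses and that other brain cells also make, was at 1507, 1707 and 1863 in WT, 1482, 1388 and 1252 in HZ and 1061, 1490.4 and 1154 in KO. All 6 mutant arrays were below the lowest WT array, HZ 1 and KO 2 by little, and KO and HZ overlapped. HZ was at 81.2% of WT (log2 difference -0.30, 95% interval -0.65 to 0.06) and KO at 73.0% (-0.46, -0.81 to -0.11).

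**Figure D3:**
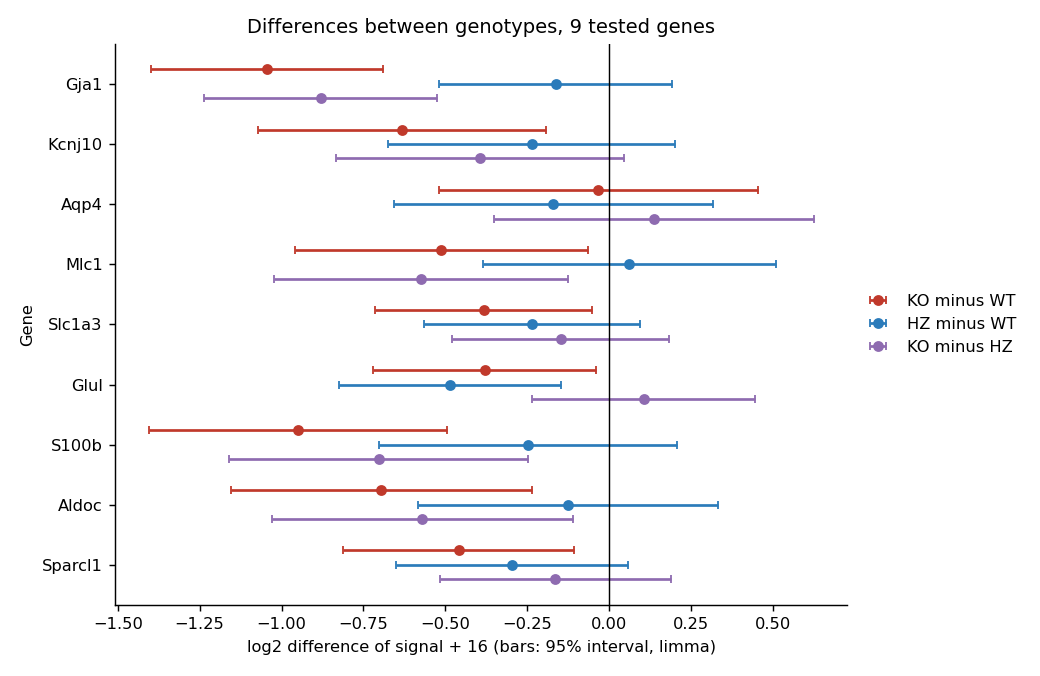
Log2 difference of signal + 16 (horizontal axis) for the 9 tested genes (vertical axis) in KO minus WT, HZ minus WT and KO minus HZ, with points for the estimate and bars for the 95% interval of the limma fit. Gja1 (-1.04) and S100b (-0.95) lie farthest below 0 in KO minus WT, Aqp4 lies at -0.03, and the HZ minus WT estimates run from -0.49 for Glul to 0.06 for Mlc1.

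Within genotypes the genes tended to be high or low on the same arrays. After the genotype mean was taken from each array, 34 of the 36 pairs among the 9 tested genes had a correlation above 0, with a median r of 0.62 over the 9 arrays. The pair with the highest value was Aqp4 and Mlc1, both of the endfoot membrane (r = 0.90), and that with the lowest was Aqp4 and S100b (-0.15). Without KO 3 and WT 1, the arrays farthest from the Gja1 median, r with Gja1 fell from 0.71 to 0.20 for Aldoc. It fell from 0.66 to 0.21 for Slc1a3, from 0.41 to 0.07 for Glul and from 0.24 to -0.51 for S100b. For Aqp4 it was 0.64 (from 0.76) and for Sparcl1 0.60 (from 0.64). The arrays share 1 scaling and tissue dissection, and removal of 3 means leaves 6 degrees of freedom, so these values are a description.

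The mean log2 difference from the WT mean over the 8 tested genes other than Gja1 was -0.22, 0.19 and 0.03 on the WT arrays, -0.22, -0.24 and -0.18 on the HZ arrays and -0.61, -0.21 and -0.69 on the KO arrays. In this mean KO 2 was thus level with HZ and with WT 1, and KO 1 and KO 3 lay below every other array. The single genes on KO 2 ranged from -1.08 for S100b to 0.58 for Aqp4. Gja1 lay at -0.23, 0.04 and 0.19 in WT, -0.18, -0.03 and -0.28 in HZ and -0.95, -0.82 and -1.36 in KO. On KO 2, where the mean of the other genes was highest among the KO arrays, Gja1 was still below all WT and HZ arrays. Within each array, Gja1 minus the mean of the other 8 was between -0.15 and 0.16 in WT, between -0.10 and 0.22 in HZ and between -0.67 and -0.34 in KO. The KO arrays did not overlap the others on this measure. Gja1 had the largest KO to WT difference of the tested genes, so values below 0 in KO largely follow from that. Nothing is read from this gap. S100b behaved likewise on KO 2, at -1.08.

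**Figure D4:**
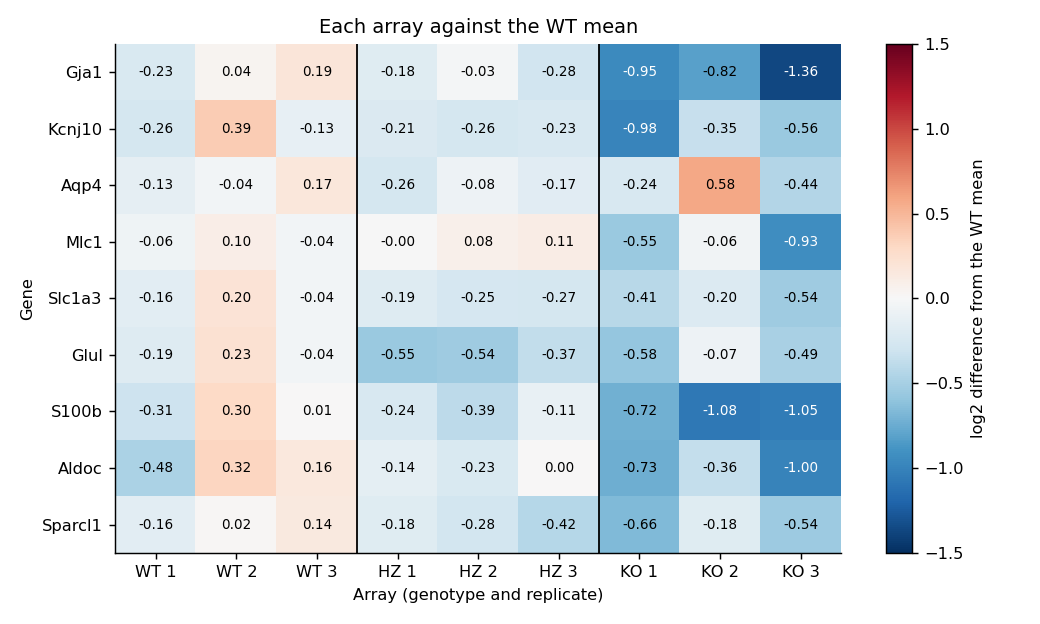
Log2 difference of each array (horizontal axis) from the mean of the 3 WT arrays for the 9 tested genes (vertical axis), as colour and number, blue for lower and red for higher. The columns KO 1 and KO 3 are blue for all 9 genes, whereas KO 2 is dark blue for Gja1 (-0.82) and S100b (-1.08) and red for Aqp4 (0.58).

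Other genes of astrocytes outside the group were also mostly lower in KO than in WT. This list and those that follow were chosen with earlier results of these data known, so nothing is read from their counts. Of 14 tested genes of other astrocyte channels, transporters and partner proteins, 10 were below 0 in KO against WT (median log2 difference -0.28, against 0.02 over all 8503 genes tested), 9 in HZ against WT (median -0.10, against 0.04 over all genes tested) and 11 in KO against HZ (median -0.23, against -0.03). Over all genes tested, 46.4%, 43.5% and 54.8% were below 0 in these comparisons. Every KO array was below every WT array for 6 of the 14, beside 6.17% of all tested genes, and 0 of the 14 were called in any of the comparisons. The largest differences in KO against WT were those of Gpr37l1, an orphan receptor of astrocytes (-0.92 ± 0.19, SE), Cldn10, of the claudin family (-0.79 ± 0.17), and Slc15a2, a peptide transporter (-0.78 ± 0.20). Slc15a2 was as low in HZ (-0.69) as in KO, and its second probe set differed by only -0.05 in KO against WT.

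Of 21 other astrocyte markers tested, 16 were below 0 in KO against WT (median -0.26) and 14 in HZ against WT (median -0.15). In KO against HZ 13 were below 0, beside 54.8% of all genes tested. Their median of -0.04 there was near the -0.03 of all genes tested. Of the 21, 0 were called. Dio2, the deiodinase that activates thyroid hormone, had the largest difference (-1.11 ± 0.23, SE), but its other tested probe sets were at -0.05 and -0.19. Htra1, a secreted protease, was at -0.80 in KO and -0.71 in HZ. Ncan, the proteoglycan neurocan, was higher in KO (0.75 ± 0.20) with its other probe set at -0.13. Aldh1l1, a folate enzyme used as a general astrocyte marker, was at 514 ± 30.8 in WT, 541 ± 25.2 in HZ and 437 ± 141 in KO (SD, n = 3). Gfap, the filament protein of astrocytes, and Gjb6, the second astrocytic connexin, were too dim to test: the brightest Gfap probe set was at 123 ± 8.54 in WT and 133 ± 9.79 in KO, and Gjb6 at 76.0 ± 54.7 and 67.7 ± 31.6.

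Of 16 tested genes of radial glia and immature astrocytes, 5 were below 0 in KO against WT (median 0.18), 6 in HZ against WT (median 0.06, near the 0.04 of all genes tested) and 7 in KO against HZ (median 0.05). Every KO array was above every WT array for 3 of them (Id3, Tnc and Nes), beside 7.8% of all genes tested. The 3 with the largest differences were Id3, an inhibitor of helix-loop-helix factors (0.69 ± 0.19, SE), Hes5, a Notch target (0.62 ± 0.25), and Tnc, the matrix protein tenascin C (0.59 ± 0.23). The KO and WT arrays of Hes5 overlapped, and its other probe set was at 0.22. Id3 was lower in HZ than in WT (-0.24), while Hes5 was higher (0.52). None of the 16 was called in any of the comparisons.

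The wider connexin family and glutamate pathway were counted in the same way. Of 5 tested genes among other connexins, pannexins and gap junction scaffolds, 1 was below 0 in KO against WT (median 0.06), the largest differences being those of Cav1 (0.25), Tjp1 (0.13) and the endothelial connexin Gja4 (-0.11), and the WT and KO arrays of these 3 overlapped. Another 9 genes of that list were on the array but too dim to test. Of 11 other genes of the glutamate and glutamine cycle, 8 were below 0 (median -0.15). Their largest differences were those of Glud1, glutamate dehydrogenase (-0.28 ± 0.15, SE), Got1, an aspartate aminotransferase (-0.25 ± 0.26), and Slc17a6, a vesicular glutamate transporter of neurons (-0.19 ± 0.22), with overlapping arrays in all 3. None of the genes of these lists was called.

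**Figure D5:**
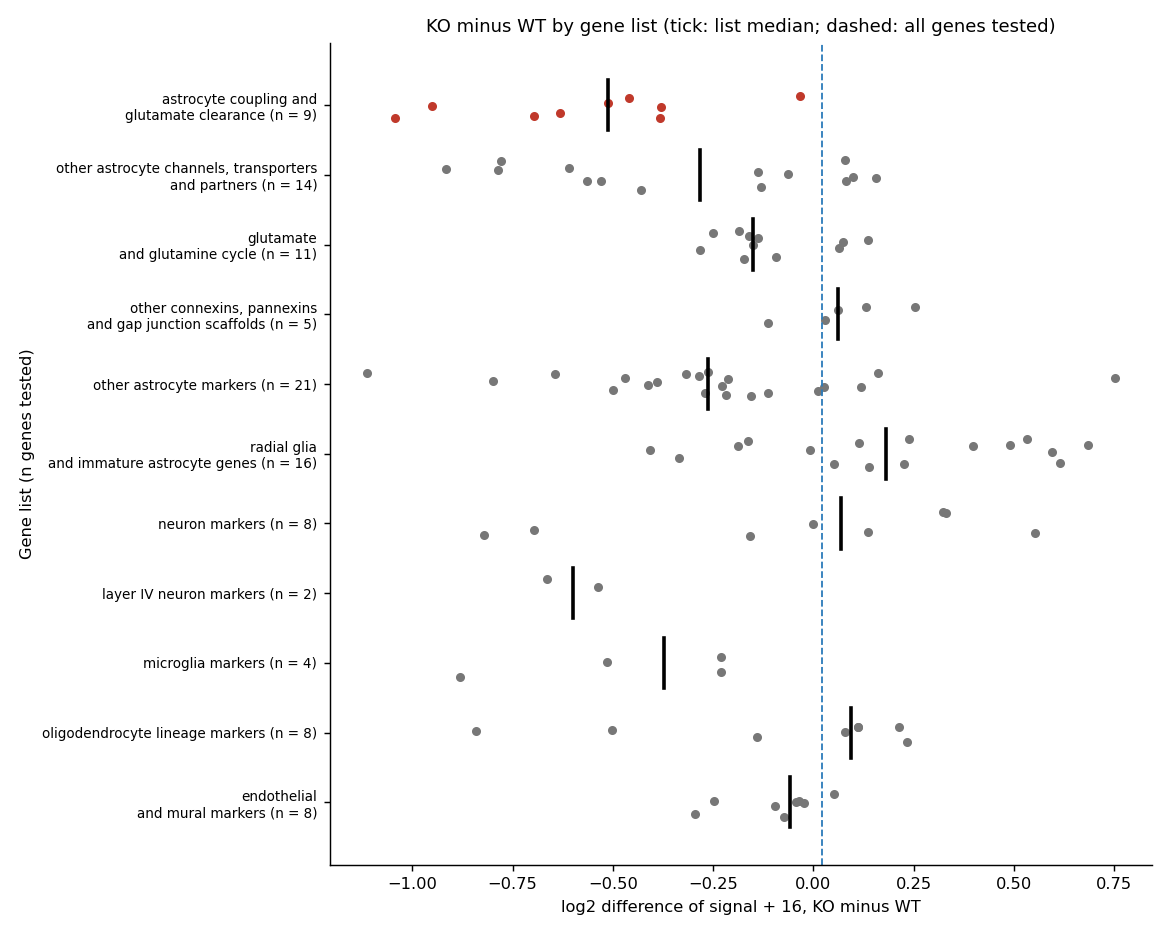
Log2 difference of signal + 16, KO minus WT (horizontal axis), for the tested genes of each list (vertical axis), a point per gene, a black tick for the list median and a dashed line for the median of all genes tested (0.02). The astrocyte coupling and glutamate clearance genes (red) lie at -0.03 or below, and the points of radial glia and immature astrocyte genes extend to 0.69.

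Markers of other cell types also differed between these arrays, and their part in the values above was not tested. The 2 markers of layer IV neurons were lower in KO than in WT on all arrays, Rorb by 0.66 and Rora by 0.54 on the log2 scale. All 4 tested microglia markers of 8 on the array were below 0 in KO against WT (median -0.37), led by Ctss (-0.88), C1qb (-0.51) and Csf1r (-0.23), although the other 2 tested Csf1r probe sets were at 0.10 and 0.06. WT and KO arrays overlapped for C1qb and Csf1r. The summed signal of the 4 microglia markers was 1209 to 2958 in WT, with the top value on WT 2, 1196 to 1750.0 in HZ and 1066 to 1435 in KO. Of 8 neuron markers 5 were above 0, with Nefl at -0.82, Nefm at -0.70 and Syt1 at 0.55 (its other probe set at -0.24), and a summed signal of 24160 to 27660 in WT, 23120 to 27220 in HZ and 19210 to 29680 in KO. WT and KO arrays overlapped for Nefl (SE 0.61) and Nefm (SE 0.37), though not for Syt1. Of 8 oligodendrocyte lineage markers 3 were below 0 (median 0.09), with Cnp at -0.84 (its other probe set at -0.15), Olig1 at -0.50 and Mag at 0.23. The WT and KO arrays of Cnp, Olig1 and Mag overlapped. Summed signals of the list were 5256 to 7412 in WT, 5224 to 6288 in HZ and 3876 to 5482 in KO. Of 8 endothelial and mural markers 7 were below 0 (median -0.06), with Cldn5 at -0.29, Kdr at -0.25 and Egfl7 at -0.10, and summed signals of 3765 to 4184 in WT, 3943 to 4632 in HZ and 3213 to 4378 in KO. WT and KO arrays overlapped for Cldn5, Kdr and Egfl7. Several markers of these lists were too dim to test, among them Mog (2.16 to 6.35), C1qa and Pecam1.

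The genes whose pattern over the 9 arrays was most like that of Gja1, by Pearson r among 8502 other genes tested, were Slc35f4 (r = 0.97, Spearman rho = 0.88), Gpr37l1 (0.94 and 0.85), Abhd3 (0.94 and 0.95), Ppp1cc (0.94 and 0.88) and Mfsd4a (0.93 and 0.83). The 3 KO arrays lie apart for Gja1, so this measure takes in the difference between genotypes. Without KO 1 and KO 3, the arrays farthest from the Gja1 median, r was 0.92, 0.89, 0.83, 0.78 and 0.84 in that order. Among the astrocyte genes of the group, S100b ranked 15th (r = 0.88), Aldoc 16th (0.88) and Mlc1 28th (0.86), and Aqp4 ranked 2368th (0.21). Without KO 1 and KO 3 their r was 0.86, 0.62, 0.33 and -0.55. After genotype means were removed, the 5 nearest genes were others, Psrc1 (r = 0.98), Rassf3 (0.92), Fbxw11 (0.91), Snhg6 (0.91) and Creg1 (0.91). Without KO 3 and WT 1 their r was 0.93, 0.87, 0.88, 0.72 and 0.84. On this measure S100b ranked 2283rd (0.24), Aldoc 185th (0.71), Mlc1 184th (0.71) and Aqp4 103rd (0.76). Without KO 3 and WT 1 the r of S100b, Aldoc, Mlc1 and Aqp4 was -0.51, 0.20, 0.44 and 0.64. These are the extremes of many correlations over 9 arrays and are given as descriptions.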

How the data were processed

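RNA from the microdissected layer was purified on RNeasy columns, put through 2 cycles of cDNA amplification and given a biotin label, as the labels' protocols state. What was deposited are intensities on a linear scale, 1 per probe set and array, computed by MAS5, which the submitters' processing notes list together with Affymetrix Expression Console. For software versions and scaling target: not given in the sources used here. The mean of each array without the top and bottom 2% of probe sets was 500.2, so the authors had scaled all arrays to 1 level. Such scaling assumes that most transcripts are alike on all arrays.

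Of 22690 probe sets, 64 controls were left out and the 60% with the highest mean signal over all arrays were tested (13576 probe sets, 8503 genes, lowest mean 121.5). Signals were taken as log2(signal + 16), so differences understate the change of dim probe sets. All 9 arrays entered 1 model, which had a term for genotype and no other, in limma 3.58.1 (R 4.3.3, eBayes with intensity trend, 6 residual degrees of freedom and 6.73 from the prior). Tests were 2-sided with Benjamini-Hochberg adjustment over all tested probe sets and a threshold of 0.05. The procedure was tested on simulated data.

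Probe sets were named from the platform annotation (20380 with 1 symbol, 691 with several and 1555 with none). Of the named ones, 20364 matched RefSeq (GRCm38.p6) by Entrez identifier. The brightest probe set represents a gene. The genes and lists were chosen with earlier results of these data known. Named from each list were the 3 genes with the largest KO to WT difference, and the 5 genes nearest to Gja1 by each measure. Aldh1l1, Gfap and Gjb6 were added after their values were seen. Replicate numbers were not taken to pair animals across genotypes: of 9 same-numbered pairs 1 had deviations correlated above 0.1. So few arrays cannot exclude a pairing. Alternatives were other pseudocounts, filters, scalings, weights and terms, and leaving out each array. Each array is a separate mouse, per the labels.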

Additional observations from a re-analysis of the deposited data

How the results depend on the processing

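All counts below are from limma. The number of probe sets called over the whole array moved with the setting. For KO against WT it was 1, and 0 with no filter on low values, with arrays set to 1 median or without the intensity trend, 6 with array weights (Gja1 among them) and 2 with the replicate number as a block. It ran from 0 to 2 when each array was left out. The call was not always Gap43: without WT 2 it was Gpaa1, and Gap43 had a limma adjusted p of 0.0554. For HZ against WT the number called was 0 (852 probe sets had an unadjusted p below 0.05), 2 with array weights and 0 to 3 with an array left out. For KO against HZ it was 1, and 0 with no filter, with quantile normalization, with arrays set to 1 median, without the intensity trend or when the Actb 3'/5' ratio was a term, an alternative chosen after seeing the data. It ran from 0 to 2 with an array left out. With the replicate number as a block the call was Malat1, and Gap43 had a limma adjusted p of 0.0565. Without HZ 1 it was a probe set without a gene name, and Gap43 had a limma adjusted p of 0.171. The replicate numbers showed no clear pairing of the samples (2 of 9 arrays correlated best with their own number), which cannot exclude one. Under the block the members' differences are the same and none of the members was called.

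The count of genes lower in KO than in WT stayed at 10 of 10 over the 12 alternatives that kept all arrays and was 9 or 10 with an array left out. For HZ against WT it was 9 or 10, and 8 or 9, and for KO against HZ 8 or 9, and 7 to 10. Of 630 differences of single genes under an alternative, 10 changed sign, all in Aqp4, Mlc1, Aldoc, Slc1a2 or Glul. Arrays set to 1 median moved the median of all tested probe sets by -0.06 for KO against WT and -0.09 for HZ against WT. Sex, read from Xist and a Y-linked transcript, was balanced over the genotypes, with 2 females and 1 male in each. The brightest probe sets of Slc1a2, Gfap and Gjb6 were below the signal filter and were not tested.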
